A study of Mus musculus with 17 samples.

Results

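The 10 genes described here encode 9 cathepsins (Ctsa, Ctsb, Ctsc, Ctsd, Ctsh, Ctsk, Ctsl, Ctss and Ctsz) and legumain (Lgmn), and they were taken by symbol from 17555 genes listed for tumor cells, TRMs or MDMs of mouse lung tumors. All 10 were listed in each of the 3 populations, and all 10 passed the filter on low values in each (1 RPKM or more in 2 or more libraries of the population). RPKM is a read count divided by the length of the gene and by the depth of the library, so levels of different genes can be set side by side. KL mice develop lung tumors once Cre acts on their engineered alleles, which include Lkb1 fl/fl, and KLG4 mice carry in addition the modified allele Gpx4 m/m. Mice of both genotypes were adult, received Cre adenovirus through the nose and then tamoxifen, and gave cells 10 weeks after the virus. In the modified allele, Cre frees a tamoxifen-dependent Dre recombinase, driven by the CAG promoter, that removes rox-flanked exons of Gpx4, a peroxidase that detoxifies lipid hydroperoxides, so deletion is limited to cells that the virus reached. Tumor cells were sorted as EpCAM-positive cells without CD45 and CD31, while the gates for tissue-resident macrophages (TRMs) and monocyte-derived macrophages (MDMs) are not given in the sources used here. For tumor cells, the count of mice per group in the study's figure legend equals the count of libraries per group. Which animals went into which library is not stated for any population. Each population had 2 KLG4 and 2 KL libraries, and P-values measure the spread between these libraries only.

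Cathepsins are proteases of lysosomes and late endosomes that are made as inactive precursors, carried there by mannose 6-phosphate receptors and activated by cleavage in the acidic lumen. Ctsb, Ctsc, Ctsh, Ctsk, Ctsl, Ctss and Ctsz are papain-like cysteine proteases, Ctsd is an aspartic protease, Ctsa is a serine carboxypeptidase, and legumain is a cysteine protease that cleaves after asparagine and trims several cathepsins to their mature form. In antigen-presenting cells Ctss degrades the invariant chain from MHC class II molecules, and in the lung Ctsh is abundant in alveolar type 2 cells, where it helps process surfactant proteins. Cystatins and stefins inhibit the papain-like members and, in part, legumain.

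Counted reads per library, read from the step between RPKM values, ranged from 9.14 to 36.6 M. Every member was covered by at least 415 reads in every library. Gpx4 itself was at 94.95 and 76.8 RPKM in KL tumor cells and at 56.4 and 61.9 RPKM in KLG4 tumor cells (log2 difference -0.53, adjusted p = 0.036), and its differences in TRMs (-0.68, adjusted p = 0.070) and MDMs (0.76, adjusted p = 0.679) did not pass. The 2 KLG4 tumor cell libraries were closer to each other than any other pair, with a chi-square of 3.28 per gene against 60.4 for the KL pair. The 2 genotypes of TRMs differed in sex transcripts, since Xist was at 18.3 and 20.2 RPKM in KLG4 and at 0.257 and 0.501 RPKM in KL while Eif2s3y was listed at 0 in both KLG4 libraries and at 12.3 and 14.7 RPKM in KL, so sex and genotype cannot be told apart there. All 4 tumor cell libraries held transcripts of both sexes. Xist was at 4.17 to 6.18 RPKM there, Eif2s3y at 7.27 to 9.26 RPKM and Ddx3y at 8.61 to 17.1 RPKM. Whether each tumor cell library came from a single mouse, as the legend's count of mice might be read, was not tested. In KL TRMs 22.3% and 31.5% of reads fell in mitochondrially encoded genes and 6 chromosome 1 copies of them, against 2.95% and 5.78% in KLG4 TRMs. In tumor cells these shares were 7.38% and 8.26% in KL and 14.8% and 14.7% in KLG4, and in MDMs 2.75% and 7.31% in KL and 0.921% and 1.33% in KLG4.

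The populations carried their labelled markers, with exceptions in KLG4 tumor cells and in MDMs. Tumor cells held the epithelial keratins Krt8 and Krt18 at 1287 to 3367 RPKM. In KLG4 tumor cells, however, the neutrophil gene S100a9, at 1983 and 1886 RPKM, stood above both keratins, and the fibroblast gene Dcn reached 209 and 203 RPKM. TRMs held the alveolar macrophage genes Ear2 at 4093 to 4785 RPKM and Chil3 at 2953 to 7512 RPKM. MDMs held the myeloid integrin Itgam at 316 to 549 RPKM, but the neutrophil genes S100a9, at 9379 to 21106 RPKM, and Csf3r, at 208 to 323 RPKM, stood far above the complement gene C1qa of mature macrophages, at 16.0 to 92.7 RPKM. All 10 neutrophil markers reached 1 RPKM in every MDM library.

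Ctss was the leading member in both macrophage populations, and Ctsh was the only member whose highest levels lay in tumor cells. Ctss stood at 3675 and 4322 RPKM in KL TRMs and at 6262 and 5230.0 RPKM in KLG4 TRMs, which placed it between rank 6 and rank 21 of all genes listed there. In MDMs it reached 1325 and 1823 RPKM in KL and 1283 and 902 RPKM in KLG4. KL tumor cells held only 29.3 and 49.6 RPKM of Ctss, with the mean of KL TRMs 101-fold above theirs, and KLG4 tumor cells 273 and 271 RPKM. The order of group means for Ctss was KLG4 TRMs, KL TRMs, KL MDMs, KLG4 MDMs, KLG4 tumor cells and KL tumor cells, with no overlap of libraries between neighbours. The tables were made separately for each population, so these orders are descriptions without a test.

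The other members with a large contrast between macrophages and tumor cells were Ctsk, Ctsd, Ctsz, Lgmn and Ctsa. Ctsk, a collagen- and elastin-degrading protease best known from osteoclasts, ran from 9.75 ± 3.19 RPKM (SD, n = 2) in KL tumor cells to 649 ± 27.7 RPKM (SD, n = 2) in KLG4 TRMs. Ctsd, the main aspartic protease of lysosomes, ran from 148 ± 17.4 to 1262 ± 149 RPKM (SD, n = 2) between the same groups. Ctsz, a carboxypeptidase, ranged from 67.6 to 796 RPKM over the 12 libraries, Lgmn from 10.99 to 132 RPKM, and Ctsa, a carboxypeptidase that also protects lysosomal beta-galactosidase and neuraminidase, from 8.87 to 81.8 RPKM. For each of these 5 genes, and for Ctsb, TRMs of KLG4 mice were the highest group and tumor cells of KL mice the lowest.

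Ctsl, Ctsc and Ctsh were ordered otherwise. Ctsl, a broad endopeptidase, had its second highest mean in KL tumor cells (171 ± 57.4 RPKM, SD, n = 2) and its lowest in KL TRMs (110 ± 25.1 RPKM, SD, n = 2), and KL tumor cells overlapped the next group, KLG4 MDMs. Ctsb, which acts as an endopeptidase and a carboxydipeptidase, ranged from 57.1 to 237 RPKM. Ctsc, the dipeptidyl peptidase that activates granule serine proteases of neutrophils, mast cells and cytotoxic lymphocytes, was at 60.9 to 75.6 RPKM in TRMs and at 11.3 to 36.2 RPKM in all other libraries. Ctsh, an aminopeptidase, reached 161 and 155 RPKM in KL tumor cells, 40.8 and 43.9 RPKM in KLG4 tumor cells and 12.8 to 34.8 RPKM in macrophages.

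**Figure D1:**
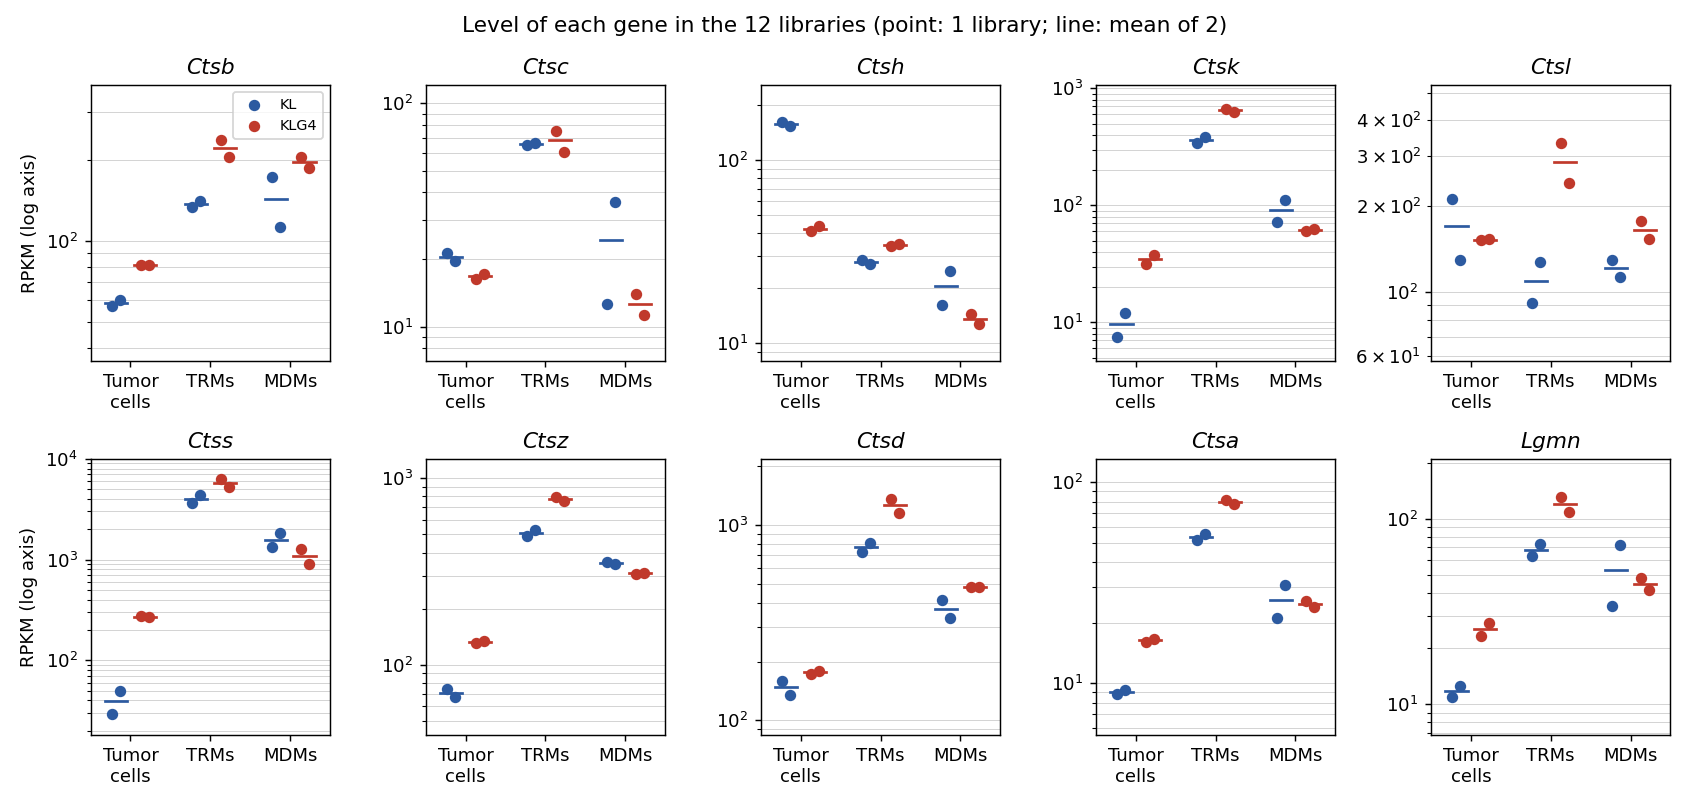
RPKM (log axis, each panel with its own range) of the 10 genes in the 3 populations, with 1 point per library and a line at the mean of 2. Ctss separates the populations by the widest range, from 29.3 to 6262 RPKM, and Ctsh alone has its highest levels in tumor cells of KL mice.

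The make-up of the 10-gene sum differed between the populations and, in tumor cells, between the genotypes. A share within a library is not changed by a single scaling factor per library. Ctss made up 61.5% to 66.1% of the summed RPKM in TRMs and 41.2% to 60.6% in MDMs. In tumor cells its share was 3.95% and 7.63% in KL and 29.1% and 28.1% in KLG4. The share of Ctsh ran the other way, with 21.7% and 23.8% in KL tumor cells and 4.35% and 4.56% in KLG4 tumor cells. The largest members in KL tumor cells were therefore Ctsl, Ctsd and Ctsh, while in KLG4 tumor cells they were Ctss, Ctsd and Ctsl. The summed level of all 10 members was 742 and 651 RPKM in KL and 938 and 962 RPKM in KLG4 tumor cells.

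**Figure D2:**
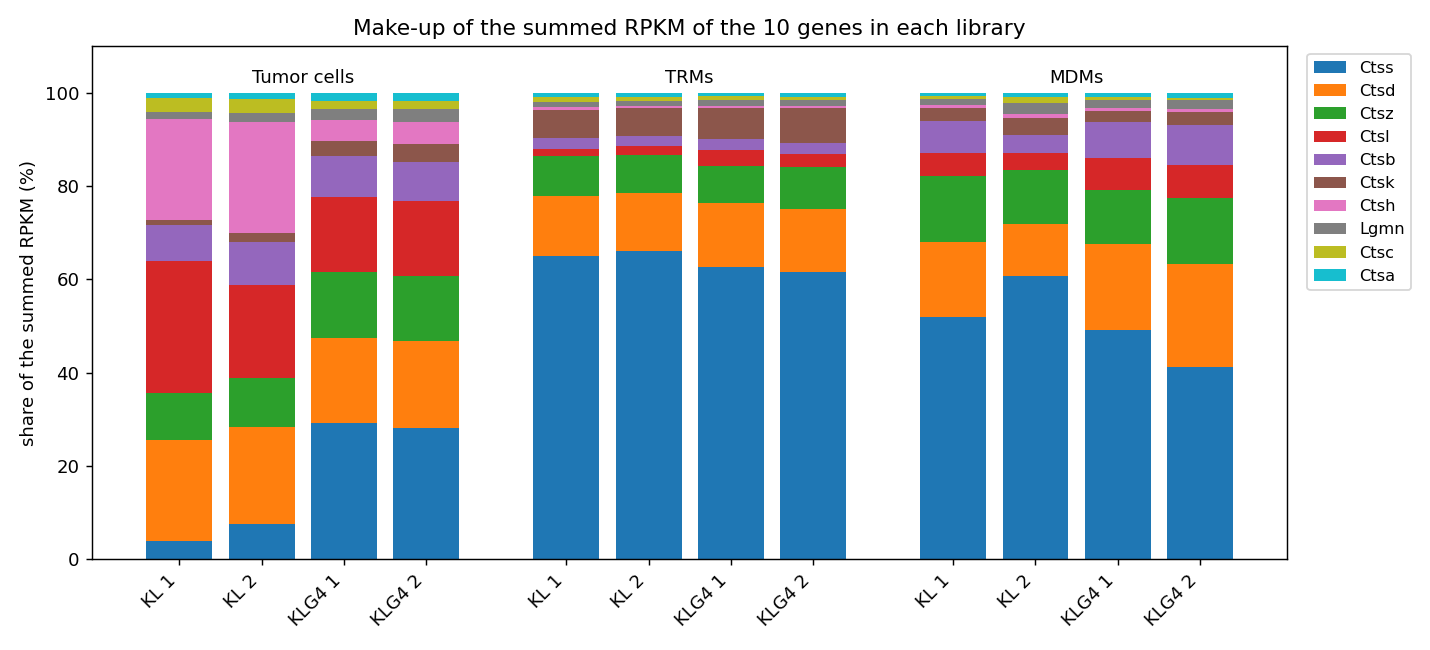
Share of each gene in the summed RPKM of the 10 genes (%), 1 bar per library. Ctss takes 61.5% to 66.1% in the 4 TRM libraries, and in tumor cells it goes from 3.95% and 7.63% in KL to 29.1% and 28.1% in KLG4.

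In tumor cells the comparison of KLG4 with KL asks how loss of Gpx4 in established tumors goes with expression of these proteases. Of the 10 members, 6 rose (Ctss, Ctsk, Lgmn, Ctsz, Ctsa and Ctsb), 1 fell (Ctsh) and 3 did not pass an adjusted p of 0.05 (Ctsd, Ctsc and Ctsl). Among all 13770 genes tested, 40.3% passed, 20.6% as higher and 19.6% as lower in KLG4. The median log2 difference of the members was 0.66, beside -0.094 for all genes tested. Both KLG4 libraries were above the KL pair for 7 members and below it for 2, where 32.5% and 42.2% of all genes were. At the threshold of the study (unadjusted p under 0.05 and at least 2-fold) Ctss, Ctsk and Lgmn were higher and Ctsh was lower, where 16.6% of all genes were higher and 7.26% lower.

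Ctss, the class II-associated endopeptidase, showed the largest difference of the 10. Its KLG4 levels of 273 and 271 RPKM were far from its KL levels of 29.3 and 49.6 RPKM, a log2 difference of 2.83 ± 0.25 (SE, adjusted p = 0.000962). Its gene lies at chr3:95526786-95556403 on the plus strand of GRCm38, and Ctsk lies 17423 bases upstream of it on the same strand, at chr3:95499256-95509362. Ctsk also rose, with KL levels of 7.50 and 12.01 RPKM and KLG4 levels of 31.3 and 37.6 RPKM (log2 difference 1.84 ± 0.25, SE, adjusted p = 0.00366).

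Because these neighbours moved together, the 120 bases before the RefSeq start site of each are shown (GRCm38.p6, chr3:95526666-95526785 for Ctss and chr3:95499090-95499209 for Ctsk, both plus strand, 5′ to 3′). Capitals mark a match to GAAANNGAAA, a pattern of the kind bound by interferon regulatory factors.
Ctss: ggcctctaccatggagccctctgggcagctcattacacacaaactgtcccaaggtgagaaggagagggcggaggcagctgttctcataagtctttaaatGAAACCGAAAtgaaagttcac
Ctsk: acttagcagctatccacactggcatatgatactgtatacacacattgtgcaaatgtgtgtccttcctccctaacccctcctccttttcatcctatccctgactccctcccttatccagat
The match in Ctss begins 21 bases before its start site, and the Ctsk window holds none. On either strand, 3.44% of 32851 RefSeq promoters (250 bases before to 50 after a start) hold this pattern, and among the 10 promoters of 8 members found in the table it was present in Ctss only. The letters GAGGAAGT, of the kind bound by the myeloid factor PU.1, were also searched on both strands and were in the promoters of Ctss and Ctsc and in 3.20% of all promoters. The motifs were chosen after seeing the promoters, so these shares are no test of an excess. A match is a description of the letters and not a site of binding.

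Lgmn, which matures other proteases, and Ctsz, which trims C-terminal residues, rose by smaller amounts. Lgmn (chr12:102394084-102439813, minus strand) was at 10.99 and 12.5 RPKM in KL and at 23.4 and 27.5 RPKM in KLG4 (log2 difference 1.11 ± 0.15, SE, adjusted p = 0.00354). Ctsz (chr2:174427493-174439039, minus strand) was at 74.4 and 67.6 RPKM in KL and at 132 and 134 RPKM in KLG4 (0.90 ± 0.11, SE, adjusted p = 0.00276). The groups of both genes were apart, with each KLG4 library above each KL library.

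Ctsa and Ctsb rose least among the called members. Ctsa (chr2:164832873-164841032, plus strand) had KL levels of 8.87 and 9.20 RPKM and KLG4 levels of 16.0 and 16.6 RPKM (log2 difference 0.84 ± 0.13, SE, adjusted p = 0.00517). Ctsb (chr14:63122462-63145919, plus strand) moved from 57.1 and 60.0 to 81.1 and 81.2 RPKM (0.47 ± 0.11, SE, adjusted p = 0.0203). Libraries were made without strand, and exons of Ctsa share 324 bases with Neurl2 and 495 bases with Pltp, those of Ctsb 767 bases with Fdft1, and those of Ctsd 808 bases with RP23-145I16.3, so reads from those stretches cannot be told apart.

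Ctsh was the single member that fell in tumor cells. It was at 161 and 155 RPKM in KL and at 40.8 and 43.9 RPKM in KLG4, a log2 difference of -1.90 ± 0.11 (SE, adjusted p = 0.000344). The gene lies at chr9:90054152-90076089 on the plus strand. The lung peptidase Napsa, which also belongs to alveolar type 2 cells and processes surfactant protein B, fell as well, with KL levels of 10.7 and 11.1 RPKM and KLG4 levels of 2.60 and 2.95 RPKM (log2 difference -1.94, adjusted p = 0.000741). All 9 type 2 cell markers had both KLG4 libraries below both KL libraries, as did 42.2% of all genes. Their sum was 3697 and 4152 RPKM in KL and 1298 and 1321 RPKM in KLG4. The part of type 2 cells in the Ctsh result was not tested.

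Ctsd, Ctsc and Ctsl did not pass in tumor cells. Ctsd (chr7:142375911-142388038, minus strand) was at 160 and 135 RPKM in KL and at 173 and 180 RPKM in KLG4 (log2 difference 0.26 ± 0.13, SE, adjusted p = 0.163), with no overlap between the groups. Ctsc (chr7:88278085-88310888, plus strand) was at 21.4 and 19.7 RPKM in KL and at 16.4 and 17.2 RPKM in KLG4 (-0.29 ± 0.12, SE, adjusted p = 0.125). Ctsl (chr13:64363214-64370306, minus strand) was at 211 and 130 RPKM in KL, on either side of the KLG4 values of 152 and 153 RPKM. Its log2 difference of -0.12 (95% interval -0.71 to 0.48) took its sign from 1 library, since leaving out KL replicate 1 gave 0.23 (adjusted p = 0.0178) and leaving out KL replicate 2 gave -0.47 (adjusted p = 0.00165), both called and in opposite directions. Ctsd was also called without KL replicate 1 (0.38, adjusted p = 0.00503) and with quantile scaling (0.40, adjusted p = 0.0245), and Ctsc without KL replicate 2 (-0.35, adjusted p = 0.0304).

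**Figure D3:**
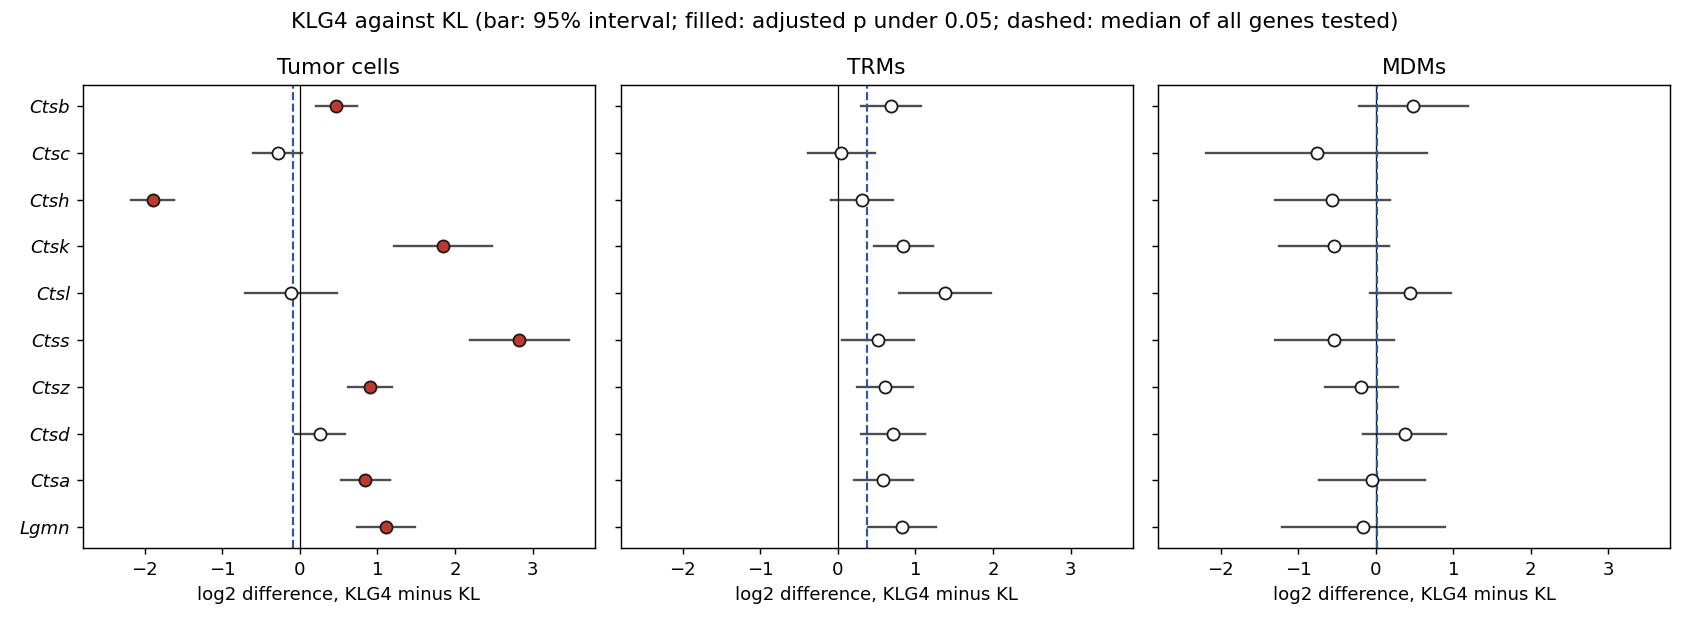
Log2 difference of each gene, KLG4 minus KL, in the 3 populations, with 95% intervals. Filled points pass an adjusted p of 0.05, and dashed lines mark the median of all genes tested (-0.094, 0.38 and 0.022). Filled points appear in tumor cells only, from -1.90 for Ctsh to 2.83 for Ctss.

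Markers of other cells differed between the tumor cell groups in the same libraries. Beside them, both KLG4 libraries were above both KL libraries for 32.5% of all genes and below for 42.2%. All 10 leukocyte markers were higher in both KLG4 libraries, with a sum of 323 and 332 RPKM against 29.0 and 42.5 RPKM in KL. Of the 10 alveolar macrophage markers 7 were higher and 3 lower (sum 411 and 419 against 53.0 and 71.7 RPKM), and all 9 listed markers of monocyte-derived macrophages were higher (133 and 129 against 8.13 and 12.01 RPKM). Also higher in both KLG4 libraries were 8 of 9 listed neutrophil, 8 of 8 T cell, 6 of 6 B and plasma cell and 7 of 7 fibroblast markers. All 5 epithelial markers were lower in KLG4, with a sum of 3550 and 3560 RPKM against 8269 and 6139 RPKM in KL. The part of these cells in the differences of Ctss, Ctsk, Lgmn, Ctsz, Ctsa and Ctsb was not tested. In bulk RNA, fewer cells of a type and less RNA per cell cannot be told apart.

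The calls of Ctss and Ctsh in tumor cells held without any 1 of the 4 libraries. The other calls depended on which KLG4 libraries were used. Without KLG4 replicate 1 the members called were 4 (Ctss, Ctsk, Lgmn and Ctsh), without KLG4 replicate 2 they were 2 (Ctss and Ctsh), and with the pair averaged to 1 sample they were 3 (Ctss, Ctsk and Ctsh). Calls among all 13770 genes were 1990, 1927 and 1923 in these fits, against 5543 with all libraries. The log2 differences of members in the fits that lost their call were close to those with all libraries, with Ctsa at 0.82 to 0.87, Ctsb at 0.47, Ctsz at 0.89 to 0.92, Lgmn at 0.99 and 1.11 and Ctsk at 1.71. Ctsb also lost its call without the variance trend (adjusted p = 0.0579).

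In TRMs the same comparison addresses macrophages, in which the design does not aim to delete Gpx4. Gpx4 was all the same at 53.8 and 57.0 RPKM in KLG4 TRMs and at 89.8 and 88.2 RPKM in KL TRMs. Its log2 difference was -0.68 (limma adjusted p = 0.070), and the cause was not tested. All 10 members had a positive log2 difference, from 0.045 for Ctsc to 1.38 for Ctsl, yet none passed an adjusted p of 0.05 in limma, where 1.8% of 10990 genes passed, 1.36% as higher. At an unadjusted p under 0.05 there were 8 (all but Ctsc and Ctsh), beside 28.3% of all genes, and limma-voom on the recovered reads called 8, beside 18.2% of the genes in that fit. The median of the members was 0.65 and that of all genes tested was 0.38. Libraries of the groups did not overlap for 9 members, all higher in KLG4, as for 53.7% of all genes.

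Ctsl showed the largest difference in TRMs in the values as deposited. It was at 92.0 and 127 RPKM in KL and at 332 and 241 RPKM in KLG4 (log2 difference 1.38 ± 0.24, SE, adjusted p = 0.0539), and it was the 1 member at the threshold of the study, which 12% of all genes reached as higher. Its share of the 10-gene sum, which a single factor per library does not change, went from 1.63% and 1.95% in KL to 3.33% and 2.83% in KLG4.

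Ctsk, Lgmn, Ctsd and Ctsb followed in TRMs. Ctsk was at 338 and 386 RPKM in KL and at 668 and 629 RPKM in KLG4 (log2 difference 0.84 ± 0.15, SE, adjusted p = 0.0553). Lgmn was at 62.9 and 72.7 RPKM in KL and at 132 and 109.2 RPKM in KLG4 (0.82 ± 0.18, SE, adjusted p = 0.0658). Both genes degrade or mature other lysosomal and matrix proteins, and in both the groups were apart. Ctsd was at 729.6 and 812 RPKM in KL against 1367 and 1157 RPKM in KLG4 (adjusted p = 0.0769), and Ctsb at 133 and 140 against 237 and 204 RPKM (adjusted p = 0.0730).

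Ctss, the most abundant member of TRMs, and Ctsz kept close to their part of the pool. Ctss had a log2 difference of 0.52 ± 0.19 (SE, adjusted p = 0.148), and its share of the 10-gene sum was 64.9% and 66.1% in KL against 62.7% and 61.5% in KLG4. Ctsz was at 489 and 529 RPKM in KL and at 796 and 754 RPKM in KLG4 (0.61 ± 0.15, SE, adjusted p = 0.0809), with a share of 8.63% and 8.10% against 7.98% and 8.88%. Ctsa gave 51.3 and 54.9 against 81.8 and 77.6 RPKM (adjusted p = 0.0904). Ctsc, at 65.0 and 66.5 RPKM in KL and 75.6 and 60.9 RPKM in KLG4, overlapped, and its share was lower in KLG4 (0.757% and 0.716% against 1.15% and 1.02%).

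The size of the TRM differences depended on the scaling, beside the unequal mitochondrial reads given above. With reads outside mitochondrial genes and their chromosome 1 copies as the base, a scaling chosen after seeing the data, the median of all genes was 0.0017 and that of the members 0.26. Ctsl was then at 0.99 (adjusted p = 0.118), Ctsk at 0.45 and Lgmn at 0.44, while Ctsc (-0.35) and Ctsh (-0.082) turned negative. Under TMM scaling the members' median was 0.25, with Ctsc at -0.36 and Ctsh at -0.092. Under quantile scaling Ctss, at 1.34, stood above Ctsl, at 1.12.

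Markers moved in the TRM libraries too, where both KLG4 libraries were above both KL libraries for 53.7% of all genes tested. Of the 10 alveolar macrophage markers 6 were higher and 1 lower in both KLG4 libraries, with a sum of 13130.4 and 12235 RPKM against 8561 and 8454 RPKM in KL. The 9 type 2 cell markers had 6 lower and 1 higher, with a sum of 33.5 and 67.4 RPKM in KLG4 against 172 and 182 RPKM in KL. Of the 9 listed monocyte-derived macrophage markers 7 were higher and 0 lower (sum 168 and 191 against 99.9 and 81.8 RPKM), while 4 of 8 listed neutrophil markers were lower and 1 higher, and 6 of 10 leukocyte markers were higher and 2 lower. Their part in the members' values was not tested.

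**Figure D4:**
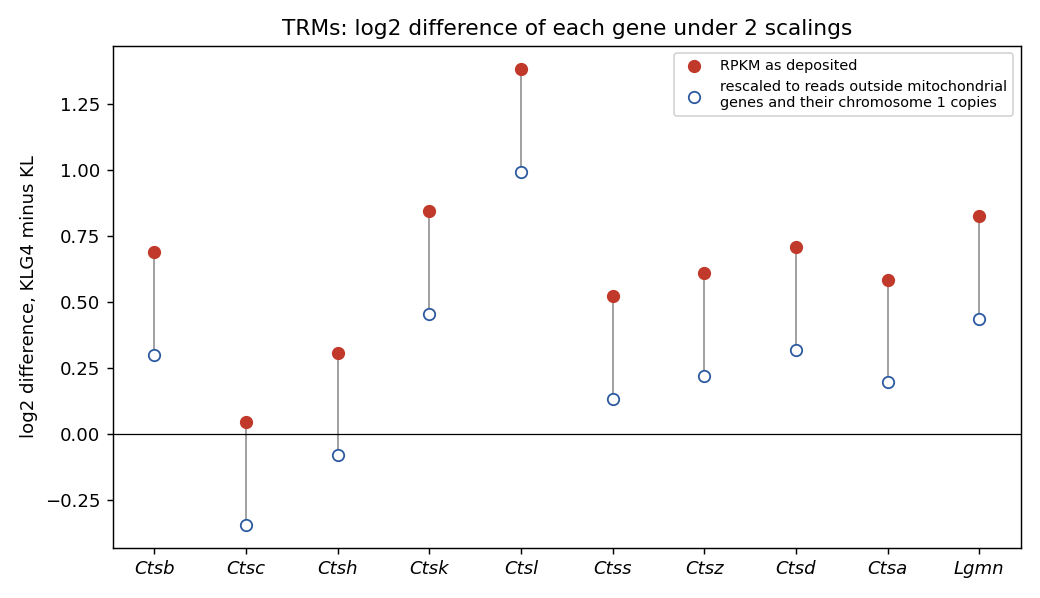
Log2 difference of each gene in TRMs, KLG4 minus KL, from RPKM as deposited (filled) and after rescaling to reads outside mitochondrial genes and their chromosome 1 copies (open). All 10 open points lie below the filled ones, Ctsl stays the highest at 0.99, and Ctsc and Ctsh fall under 0.

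In MDMs no difference between the genotypes was detectable for any member. Of the 10 members 0 passed an adjusted p of 0.05 in limma, as did 0% of 10475 genes, and 0 passed an unadjusted p of 0.05, beside 6.74% of all genes. The smallest adjusted p in the table was 0.679. The members' median log2 difference was -0.17 and that of all genes 0.022. The widest 95% interval, for Ctsc, ran from -2.18 to 0.66, and the narrowest, for Ctsz, from -0.66 to 0.28, so changes of up to about these sizes were not resolved.

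The direction was split among the members in MDMs. KLG4 values exceeded KL values for Ctsb (204 and 187 against 172 and 113 RPKM), Ctsd (482 and 481 against 412 and 335 RPKM) and Ctsl (178 and 154 against 129.7 and 113 RPKM), 3 members where 25.4% of all genes did so. They were lower for 4 members, Ctss (1283 and 902 against 1325 and 1823 RPKM), Ctsk (60.3 and 63.0 against 72.1 and 111 RPKM), Ctsz (307 and 311 against 357 and 347 RPKM) and Ctsh (14.3 and 12.8 against 16.1 and 24.8 RPKM), beside 19.1% of all genes. Ctsa, Ctsc and Lgmn overlapped. Type 2 cell markers were lower in KLG4 MDMs as well, 8 of 9 of them (sum 38.3 and 72.0 against 161 and 391.8 RPKM), as were 4 of 5 epithelial markers, and their part in the Ctsh values was not tested.

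The KL MDM libraries were unlike each other, and the members moved with that. KL replicate 2 held more Ctsc (36.2 against 12.6 RPKM), Lgmn (71.9 against 34.0 RPKM), Ctsk and Ctss and less Ctsb and Ctsd than KL replicate 1. It also had less S100a9 (9379 against 21106 RPKM), more C1qa (92.7 against 16.0 RPKM), more epithelial markers (sum 254 against 71.3 RPKM) and Xist at 0.839 against 21.8 RPKM. The part of these cells and of sex in the members' values was not tested. Without KL replicate 2 the members' median was 0.090 and Lgmn stood at 0.38, and without KL replicate 1 the median was -0.51, 6 members were called (Ctsb and Ctsd higher, Ctsc, Ctsh, Ctsk and Lgmn lower) and so were 2682 genes.

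Genes that make, carry, regulate or share the compartment with these proteases gave a mixed picture in tumor cells. Among 14 other lysosomal hydrolases 9 rose and 2 fell, with a median of 0.86. Beside them, 20.6% of all genes tested rose and 19.6% fell, with a median of -0.094. The alpha-galactosidase gene Gla rose from 1.45 and 1.78 to 17.2 and 17.7 RPKM (log2 difference 3.36, adjusted p = 0.000252), and the sphingolipid activator gene Psap from 46.5 and 45.2 to 119 and 125 RPKM (1.41, adjusted p = 0.000639). The cholesterol carrier Npc2 fell from 212 and 185 to 78.8 and 80.2 RPKM (-1.32, adjusted p = 0.00103), and the acid ceramidase gene Asah1 fell too.

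Of 9 other lysosomal and granule peptidases 4 rose (Ctsf, Ctsw, Prcp and Scpep1) and Napsa fell. Ctsf, Ctsw and Prcp were under 1 RPKM in both KL libraries and entered the test only through KLG4, so the count of 4 is no support for a rise of the list. All 7 genes of class II chain processing, where Ctss acts, rose with a median of 1.499, beside 20.6% of all genes called higher. Among them was the invariant chain gene Cd74, from 202 and 226 to 502 and 528 RPKM (log2 difference 1.27, adjusted p = 0.00110). Lysosomal membrane and proton pump genes had 3 of 13 called, all higher (Cd68, Atp6v0d2 and Ostm1), with a median of 0.33. The count was 2 under quantile scaling, with 48.8% of all genes called. It was 5 outside mitochondrial genes and their chromosome 1 copies, with 36.4% of all genes called. The common membrane proteins Lamp1 (-0.27, adjusted p = 0.153), Cd63 (0.094, adjusted p = 0.645) and Scarb2 (0.060, adjusted p = 0.805) did not pass.

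Carriers and regulators of lysosomal enzymes were mostly not called in tumor cells. Of 9 delivery genes the 1 called was the adaptor gene Gga2 (0.358 and 0.606 to 1.26 and 1.17 RPKM, adjusted p = 0.0257), and the mannose 6-phosphate receptor genes M6pr (log2 difference 0.14, adjusted p = 0.357) and Igf2r (0.18, adjusted p = 0.589) did not pass. Among the regulators, Mitf was called, at 0.198 and 0.416 RPKM in KL and 1.13 and 1.07 RPKM in KLG4 (adjusted p = 0.0158). Tfeb (0.31, adjusted p = 0.278) and Tfe3 (0.13, adjusted p = 0.574) did not pass. Mcoln1, lower in both KLG4 libraries, did not pass either (-0.61, adjusted p = 0.0508). Both Gga2 and Mitf passed the filter on low values only through the KLG4 libraries. Fitted with no filter, their adjusted p was 0.0219 and 0.0120. Neither call held without KLG4 replicate 1 or without KLG4 replicate 2, and Gga2 also lost its call under quantile scaling. Without KLG4 replicate 1 or 2, the calls went from 11 to 6 in either case among the hydrolases and from 7 to 5 or 3 among the class II processing genes, beside 14.5% and 14% of all genes. The background shares and marker sums of the tumor cell libraries given above hold for these lists as well.

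The E-box that factors of the Mitf and Tfeb family can bind was looked for in the member promoters. The letters CACGTG, which read the same on both strands, were in 4 of the 10 promoters, 1 each of Ctsa, Ctsd, Ctsl and Lgmn, and in 7.15% of all promoters. The longer CACGTGAC, which contains the former, was in 3, of Ctsa, Ctsd and Lgmn, and in 2.25% of all promoters on either strand. The motifs were chosen after seeing the promoters, so an excess over all promoters cannot be read from these shares. A stretch of 30 bases of the Ctsd promoter (GRCm38.p6, chr7:142387906-142387935, minus strand, 5′ to 3′) is shown with that match in capitals, beginning 98 bases before the start site.
Ctsd: gcccgcgtctCACGTGACccgttgagggcc
Of these 4 genes, Ctsa and Lgmn rose in tumor cells, and Ctsd and Ctsl did not pass.

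In TRMs and MDMs no gene of these 6 lists passed with all libraries. Some passed without KL replicate 2 in TRMs and without KL replicate 1 in MDMs. In TRMs, the lists' medians were 0.52 for other peptidases, 0.65 for delivery genes, 0.61 for regulators, 0.58 for membrane and pump genes, 0.62 for hydrolases and 0.20 for class II processing, beside 0.38 for all genes. In MDMs the class II processing genes had a median of -0.90, with Cd74 at 310 and 728 RPKM in KL and at 260 and 268 RPKM in KLG4. That median rested on KL replicate 2, since it was -0.28 without that library and -1.48 without KL replicate 1. Under TMM scaling the TRM medians of the 6 lists ran from -0.20 for class II processing to 0.27 for delivery genes. These settings for the lists were added after seeing the data.

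**Figure D5:**
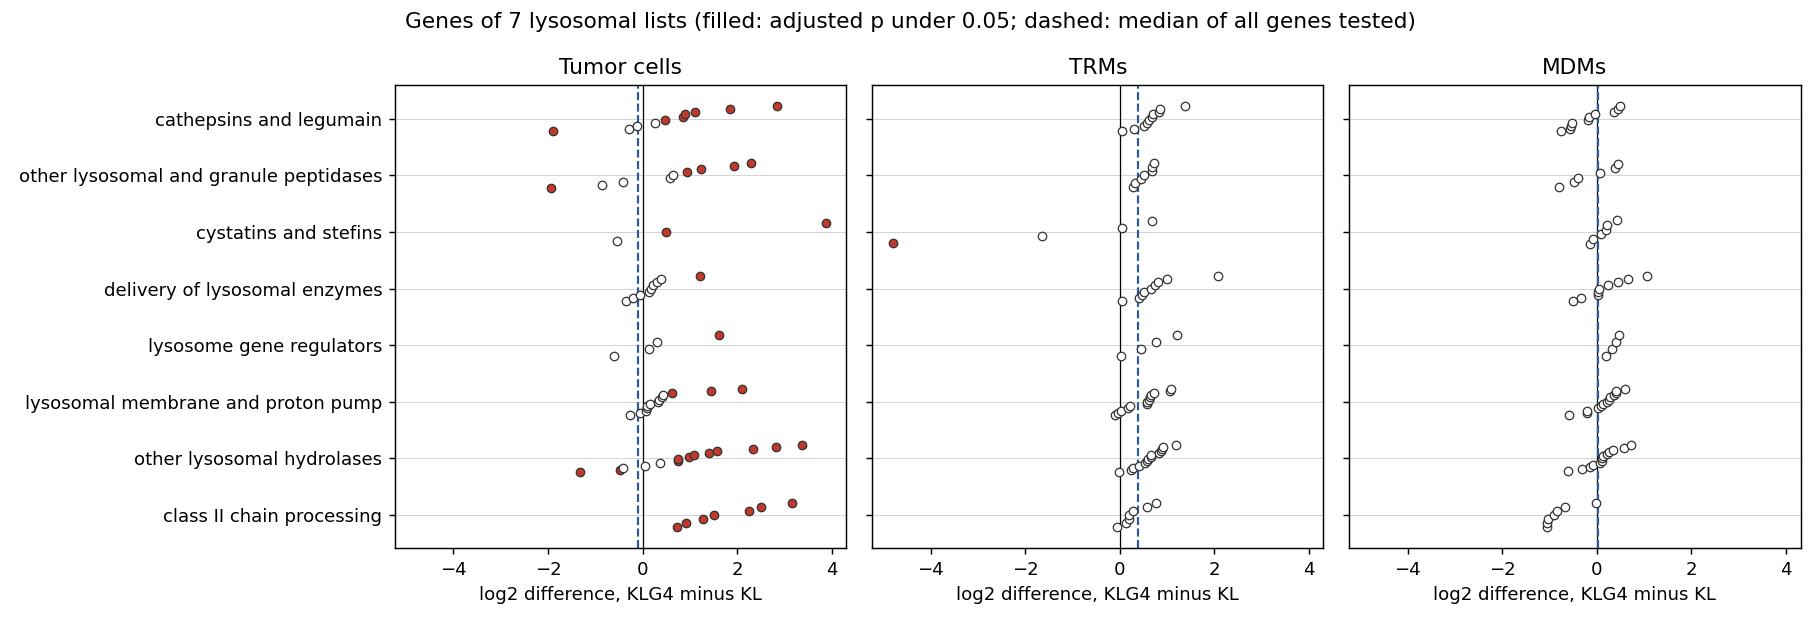
Log2 difference, KLG4 minus KL, of single genes of the members and of 7 lists in the 3 populations, on the same axis. Filled points pass an adjusted p of 0.05, and the dashed line is the median of all genes tested. In tumor cells all 7 class II processing genes and 9 of 14 hydrolases lie filled on the right, where 20.6% of all genes were called higher.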

How the data were processed

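Bulk poly(A) RNA was sequenced without strand information as paired reads. Per the labels and the study's methods, the authors trimmed reads with Trim Galore 0.6.4, aligned them with HISAT2 2.0.5 and counted them per gene of the mouse Ensembl annotation with featureCounts 2.0.0. The authors deposited RPKM values for 4 libraries of each of 3 populations. The unit of the TRM and MDM tables is not named and was read from their steps. The deposited gene length was used for those steps. Columns of the authors' own test results were not used, and 5 further samples were not analysed here. The full genotype is not reported here.

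Each table was fitted alone in limma 3.58.1 (R 4.3.3), two-sided and without covariates, after adding 0.1 to RPKM and taking log2, with the variance trend on. Genes had at least 1 RPKM in 2 or more libraries. P-values were adjusted by Benjamini-Hochberg over all genes of the table, and since 0.1 was added, differences of low genes are understated. Steps between values gave whole reads, used in limma-voom as an alternative. All members were named, as were called genes of the lists or else their 3 most abundant genes, Gpx4 and markers. The members and lists were chosen with earlier results of these data known, and the motifs after seeing the promoters. Gene positions are those deposited with the tumor cell table (GRCm38), and promoters are from RefSeq (GRCm38.p6). The fit was tested on simulated data.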

Additional observations from a re-analysis of the deposited data

Results flagged for a closer look

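For 4 members both KLG4 libraries lay on opposite sides of both KL libraries in different populations. Each value below is the log2 difference (KLG4 minus KL) of the first population minus that of the second, from separate tables, and the difference was not tested.

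For Ctss it was 3.36 between tumor cells and MDMs and 1.05 between TRMs and MDMs, with KLG4 lower in MDMs. For Ctsk it was 2.38 between tumor cells and MDMs and 1.38 between TRMs and MDMs. For Ctsz it was 1.09 and 0.80 for the same pairs. For Ctsh it was -2.21 between tumor cells and TRMs, as it was lower in KLG4 tumor cells and higher in KLG4 TRMs, and 0.87 between TRMs and MDMs. Under TMM scaling the Ctsh difference in TRMs was -0.092, so its direction there depends on scaling. Under quantile scaling the Ctss difference in MDMs was 0.069, so its direction there depends on scaling too. The differences between TRMs and MDMs were smaller under TMM scaling, a comparison added after seeing the data, at 0.68 for Ctss, 1.008 for Ctsk, 0.42 for Ctsz and 0.49 for Ctsh.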

How the results depend on the processing

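In tumor cells 7 members were called, with 40.3% of all genes; leaving out 1 library gave 2 to 9, with 14% to 53.5%, where the lone sample of a group is assumed to vary like the others, and averaging the KLG4 pair (added after seeing the data) gave 3, with 14%. In TRMs 0 were called, with 1.8% of all genes, against 2 with a pseudocount of 1 (4.46% of all genes), 4 with a mean of at least 5 RPKM (9.61%), 8 with limma-voom (18.2%) and 0 to 3 without 1 library (1.03% to 21.7%); the cause was not tested. Calls over all TRM genes ran from 12 with no trend to 2382 without KL replicate 2. The TRM median of 0.65 was 0.25 with TMM and 0.26 outside mitochondrial genes and their copies. In MDMs leaving out 1 library gave 0 to 6 calls (0% to 25.6% of all genes) and medians of -0.51 to 0.090.

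Signs turned for members that were not called with all libraries. In tumor cells Ctsl was 0.023 with quantile scaling and -0.47 to 0.23 without 1 library, called at both ends. In TRMs Ctsc was -0.22 with quantile scaling, -0.36 with TMM, -0.10 outside mitochondrial genes, -0.35 outside these and their copies and -0.11 (without KLG4 replicate 1) to 0.20 without 1 library, and Ctsh was -0.011, -0.092 and -0.082 with quantile, TMM and the copies left out. In MDMs Ctss was 0.069 with quantile scaling, and without 1 library Ctsa ran from -0.32 to 0.22 and Lgmn from -0.70 to 0.38.

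KLG4 and KL libraries of the same replicate number did not deviate together. Correlations were 0.019, -0.060 and 0.054 for tumor cells, TRMs and MDMs. With 2 libraries a group, this cannot tell whether they shared a batch. With the replicate block, 7 members were called in tumor cells (39.1% of all genes), 1 in TRMs (Ctsl, adjusted p = 0.0354; 4.28% of all genes) and 0 in MDMs (0%). With 2 libraries a group, no MDM difference of any size was resolved in the limma fit with all libraries. There 0 of 10475 genes passed, and the smallest adjusted p was 0.679.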

Other observations

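Inhibitors of the papain-like cathepsins were measured beside them. Cst3, the secreted cystatin C, rose in tumor cells, with KL levels of 146 and 133 RPKM and KLG4 levels of 197 and 197 RPKM (log2 difference 0.50, limma adjusted p = 0.0188), and the stefin gene Stfa2l1 rose from 2.04 and 3.03 to 36.1 and 39.6 RPKM (3.87, adjusted p = 0.000315). The calls of Cst3 and Stfa2l1 did not both hold without KLG4 replicate 1 or without KLG4 replicate 2. Cstb, a cytosolic stefin, was at 119 and 90.3 RPKM in KL and at 67.1 and 75.8 RPKM in KLG4 (-0.54, adjusted p = 0.0523). The summed RPKM of the 7 papain-like cathepsins divided by that of Cst3 and Cstb was 2.13 and 2.21 in KL and 2.75 and 2.70 in KLG4 tumor cells. In TRMs this ratio was 13.4 and 13.8 in KL and 13.8 and 15.0 in KLG4, and in MDMs it was 5.42 and 7.34 in KL and 5.15 and 4.05 in KLG4. This ratio depends on the inhibitors taken. Stfa2l1 was at 324 to 485 RPKM in MDMs, and with all listed cystatins and stefins in the sum the MDM ratio was 1.85 and 3.33 in KL and 2.23 and 1.72 in KLG4, which overlapped, and the tumor cell ratio was 2.11 and 2.18 in KL and 2.42 and 2.36 in KLG4. The 1 call among the lists in TRMs was the stefin gene Stfa2, at 5.67 and 3.62 RPKM in KL, at 0.177 RPKM in KLG4 replicate 1 and listed at 0 in KLG4 replicate 2 (adjusted p = 0.0435). It passed the filter on low values only through the KL libraries, and with no filter its adjusted p was 0.0459. Its call was lost under TMM scaling and with reads outside mitochondrial genes and their chromosome 1 copies as the base.

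Of the granule serine proteases that cathepsin C activates, only the basophil protease gene Mcpt8 was tested, in tumor cells, where it fell (KL levels of 61.3 and 26.9 RPKM, KLG4 levels of 6.89 and 5.29 RPKM, log2 difference -2.73, adjusted p = 0.00463). Without 1 library the Mcpt8 difference ran from -3.32 to -2.14, and its call was lost without KLG4 replicate 2. The neutrophil marker S100a9 and other listed neutrophil markers, 8 of 9, were higher in the same KLG4 libraries.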
